A study of Mus musculus with 7 samples.

Results

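Centromere and kinetochore genes are described here in contralateral mammary tissue of HMMRTg/Tg mice and control mice. The members were 35 mouse genes for CENP proteins, CENP-A loading factors, the KMN network and the Ska and RZZ complexes, taken by symbol. Of these, 34 had a row among the 23930 amplicons of the panel, and Cenpp was not analysed here. At least 1 RPM in at least 3 mice, the filter on low values, was reached by 31 of the 34. RPM is the reads of an amplicon per 1000000 reads on the panel.

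The HMMRTg/Tg group comprised 4 mice (mice 7, 8, 9 and 11) that carried human HMMR in the Rosa26 locus on both alleles, together with Blg-Cre, floxed Brca1 on both alleles (Brca1f/f) and a heterozygous Trp53 allele (Trp53+/-). The control group comprised 3 mice (mice 1, 2 and 3) with the same Blg-Cre, Brca1f/f and Trp53+/- alleles but without the HMMR transgene. Blg-Cre acts in mammary epithelium during lactation, so Brca1 was deleted and HMMR switched on only in cells that had expressed Cre. All mice were untreated, parous and of mixed background, the labels describe them as age-matched, and each had a tumor, with RNA taken from paraffin sections of the gland on the other side. Each mouse is a separate animal.

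The kinetochore is the protein structure that ties a chromosome to the spindle. It is built on centromeric chromatin marked by CENP-A, a variant of histone H3 that is placed after mitosis by its chaperone HJURP and the Mis18 proteins. A constitutive network of CENP proteins sits on this chromatin through the cell cycle, and at mitosis the KMN network binds microtubules while the Ska complex, the RZZ complex and the fibrous corona add strength and checkpoint signaling. Many of these genes are transcribed mainly in G2 and mitosis. HMMR is a spindle protein, and the study asked what its overexpression alters in Brca1-deficient mammary tissue before tumors form.

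Libraries held 5532358 to 9345915 reads, so a count of 0 allowed up to 0.321 to 0.542 RPM (3 reads, for counting error only). The panel has 1 amplicon per gene, and RPM carries no length term, so levels are compared between mice and not between genes. All 14 luminal epithelial markers had reads in every mouse, with a summed level of 3884 to 5979 RPM in HMMRTg/Tg mice and 3021 to 4851 RPM in control mice. Mouse Hmmr was read at 2.43 to 12.2 RPM in HMMRTg/Tg mice and 1.45 to 4.08 RPM in control mice (log2 fold change 1.07, adjusted p = 0.533 from limma), and whether its amplicon reads the human transgene was not tested. The sections also differed in muscle, with 14 skeletal muscle markers summing to 20.2 to 99.8 RPM in HMMRTg/Tg mice and 1686 to 9101 RPM in control mice. Their part in the results on kinetochore genes was not tested. In RNA of whole sections, fewer cells of a type and less RNA per cell cannot be told apart.

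Promoters are shown for Hjurp, Nuf2 and Cenpf because these genes had the largest differences between genotypes among the members. The windows run from 250 bases before to 50 bases after the start of transcription in RefSeq (GRCm38.p6, the assembly of mm10). Capitals mark TTTGAA, the usual core of the cell cycle homology region bound by MuvB complexes, and CCAAT, the box bound by NF-Y, each on either strand (TTCAAA and ATTGG when read on the other strand).
Hjurp (chr1:88277530-88277829, minus strand): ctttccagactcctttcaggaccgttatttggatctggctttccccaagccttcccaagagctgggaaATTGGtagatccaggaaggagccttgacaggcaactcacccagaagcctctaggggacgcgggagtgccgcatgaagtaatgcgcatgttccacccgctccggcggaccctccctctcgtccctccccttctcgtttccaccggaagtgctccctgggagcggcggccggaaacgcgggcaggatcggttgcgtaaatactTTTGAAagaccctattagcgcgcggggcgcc
Nuf2 (chr1:169531415-169531714, minus strand): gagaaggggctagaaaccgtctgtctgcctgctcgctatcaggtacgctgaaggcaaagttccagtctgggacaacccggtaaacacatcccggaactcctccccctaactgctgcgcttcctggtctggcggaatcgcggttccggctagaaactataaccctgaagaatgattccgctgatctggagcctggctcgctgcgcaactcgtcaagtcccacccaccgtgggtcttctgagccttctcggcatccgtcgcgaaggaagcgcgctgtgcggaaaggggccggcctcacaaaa
Cenpf (chr1:189688037-189688336, minus strand): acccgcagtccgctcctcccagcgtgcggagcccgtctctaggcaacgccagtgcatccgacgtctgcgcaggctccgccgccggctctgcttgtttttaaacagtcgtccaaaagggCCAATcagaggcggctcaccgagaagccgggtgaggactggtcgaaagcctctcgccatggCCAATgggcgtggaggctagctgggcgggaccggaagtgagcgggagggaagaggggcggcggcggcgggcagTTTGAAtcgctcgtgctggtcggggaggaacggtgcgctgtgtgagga

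Of the 34 genes, 30 matched an entry of the promoter table. TTTGAA was present in 15 of these 30 windows (50%), against 18.1% of 27025 promoters of the same length. CCAAT was present in 21 windows (70%), against 37.9% of all promoters. The motifs overlapped in the windows of Cenpw and Kntc1. In 12 of the 30 windows (40%) a TTTGAA began within 50 bases of the start, against 4.92% of all promoters, a window chosen after the matches were seen. The Hjurp promoter held TTTGAA at position 19 and CCAAT, read on the other strand, at −182, where each position is that of the first base of the match and the start of transcription is 0. The Cenpf promoter held TTTGAA at position 2 and CCAAT at −132 and −71, while neither motif was found in the Nuf2 window. All positions rest on the first entry of each gene in the promoter table. For Hjurp and Cenpf the start used lies inside the RefSeq span of the gene, not at its end. Among genes that were also tested, the median log2 fold change was 0.74 in the 15 with TTTGAA and 0.63 in the 13 without it, with maxima of 2.23 and 2.13.

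Hjurp rose in HMMRTg/Tg mice and was the only member called over all genes. The test was that of limma, on log2(RPM + 1), with p adjusted over all 13080 genes that passed the filter, and it measures only the spread between these mice. At an adjusted p under 0.05 the test called 1 of 31 members higher, where 0.0382% of all genes tested were called higher. It called 0 members lower, where 0.367% of all genes were called lower, and 0 members were lower at an unadjusted p under 0.05 (3.22% of all genes). At an unadjusted p under 0.05, 8 of 31 members were higher, where 6.49% of all genes were higher. Groups did not overlap, with HMMRTg/Tg mice above control mice, for 6 members (Hjurp, Nuf2, Cenpe, Cenpf, Kntc1 and Cenpl), where 6.52% of all genes tested did so. The reverse held for 0 members, where it held for 3.34% of all genes tested. Each of the 31 tested members reached 1 RPM in at least 1 control mouse and 27 did so in all 3. With no filter on low values, 33 of 34 members had a positive log2 fold change, where 56.7% of 20095 genes did, and the median was 0.64 beside 0.04 over those genes.

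**Figure D1:**
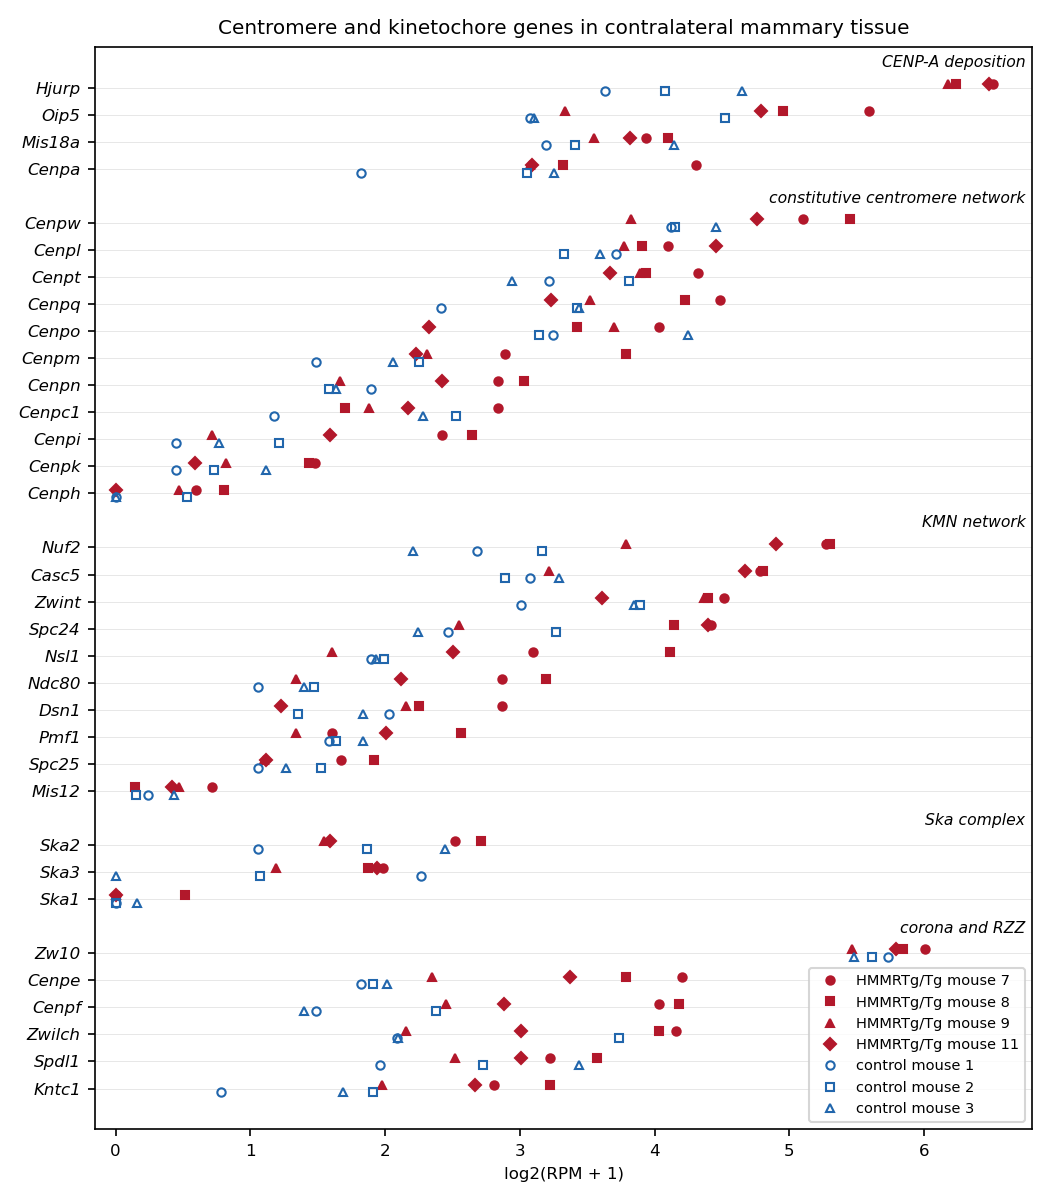
Level of each of the 34 genes in each mouse, as log2(RPM + 1) on the horizontal axis, with genes grouped by role; filled red symbols are the 4 HMMRTg/Tg mice and open blue symbols the 3 control mice. Hjurp shows 4 HMMRTg/Tg mice at 71.3 to 90.4 RPM and 3 control mice at 11.4 to 24.1 RPM, and mouse 9 (red triangles) lies near the control mice for most other genes.

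Among the genes of CENP-A deposition, only Hjurp passed the adjusted test. Hjurp, the chaperone that carries new CENP-A to the centromere, was read at 90.4, 74.3, 71.3 and 88.5 RPM in HMMRTg/Tg mice 7, 8, 9 and 11, and at 11.4, 15.9 and 24.1 RPM in control mice 1, 2 and 3. Every HMMRTg/Tg mouse lay well above every control mouse, and each value rested on 63 to 706 reads. The mean was 81.1 ± 9.72 RPM (SD, n = 4) in HMMRTg/Tg mice and 17.1 ± 6.44 RPM (SD, n = 3) in control mice, a ratio of 4.74. The log2 fold change was 2.23 (95% interval 1.66 to 2.81, adjusted p = 0.00376 from limma). In RefSeq the gene spans chr1:88258856-88277644 (GRCm38.p6).

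Cenpa, the gene for CENP-A itself, was read at 18.8, 8.99, 7.42 and 7.53 RPM in HMMRTg/Tg mice and at 2.53, 7.29 and 8.54 RPM in control mice. Mouse 7 stood above all others, mouse 1 below all others, and mice 9 and 11 lay within the control range. The log2 fold change was 0.74 (95% interval −0.25 to 1.73, adjusted p = 0.632 from limma). Within a mouse, the log2 ratio of Hjurp over Cenpa (RPM + 1) was 2.21, 2.91, 3.10 and 3.39 in HMMRTg/Tg mice and 1.81, 1.03 and 1.40 in control mice. The groups did not overlap, with a difference of 1.49 (exact permutation test, two-sided, p = 0.0571, 0.114 adjusted over 4 ratios). Here the two-sided p is the one-sided p doubled, and this is the smallest it can be over the 35 splits of 4 mice against 3.

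The Mis18 genes, whose proteins prime centromeres for CENP-A loading, gave no adjusted call. Oip5, which encodes Mis18-beta, was read at 47.3, 29.9, 9.08 and 26.6 RPM in HMMRTg/Tg mice and at 7.41, 22.0 and 7.60 RPM in control mice. Mouse 9 lay in the control range, and control mouse 2 stood apart from the other control mice (log2 fold change 1.10, adjusted p = 0.541 from limma). Mis18a, its partner, was read at 10.7 to 16.1 RPM in HMMRTg/Tg mice and 8.13 to 16.7 RPM in control mice, with a log2 fold change of 0.27 (95% interval −0.43 to 0.96). The difference in the Oip5 over Mis18a ratio was 0.83 (exact permutation test, two-sided, p = 0.4), and it was 0.32 without control mouse 3 and 1.40 without control mouse 2.

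The KMN network had 4 of its 9 tested genes higher at an unadjusted p under 0.05 (6.49% of all genes), and none passed adjustment over all genes in limma. Its median log2 fold change was 0.89, beside 0.11 for all genes tested. Nuf2, of the rod-shaped NDC80 complex that grips microtubules, was read at 37.7, 38.4, 12.8 and 28.9 RPM in HMMRTg/Tg mice and at 5.42, 7.95 and 3.62 RPM in control mice. The groups did not overlap, although mouse 9 was closer to control mouse 2 than to the other HMMRTg/Tg mice. The log2 fold change was 2.13 (95% interval 1.23 to 3.03, adjusted p = 0.0635 from limma), and the ratio of means was 5.20. It spans chr1:169497934-169531464 (GRCm38.p6).

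Ndc80, the binding partner of Nuf2, overlapped between genotypes. It was read at 6.28, 8.13, 1.53 and 3.35 RPM in HMMRTg/Tg mice and at 1.08, 1.77 and 1.64 RPM in control mice (log2 fold change 1.07, adjusted p = 0.48 from limma). The log2 ratio of Nuf2 over Ndc80 was 2.41, 2.11, 2.44 and 2.78 in HMMRTg/Tg mice and 1.62, 1.69 and 0.81 in control mice. With 1 RPM added to each gene, this ratio was above all control values in each HMMRTg/Tg mouse, mouse 9 included. The difference was 1.06 (exact permutation test, two-sided, p = 0.0571, the smallest possible, and 0.114 adjusted over 4 ratios), and 0.90 with 0.1 RPM added. The separation depended on the added RPM. In reads alone, mouse 8 (359 over 76) lay below control mouse 1 (30 over 6), so the groups overlapped. Ndc80 rested on 6 to 76 reads per mouse, so its ratio carried more counting error than that of Hjurp over Cenpa.

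Spc24 and Spc25 form the end of the NDC80 complex that faces the chromosome. Spc24 was read at 20.4, 16.7, 4.86 and 20.1 RPM in HMMRTg/Tg mice and at 4.52, 8.61 and 3.74 RPM in control mice (log2 fold change 1.22, adjusted p = 0.435 from limma). All HMMRTg/Tg mice but mouse 9 lay above the control range. Spc25 was read at 1.15 to 2.78 RPM in HMMRTg/Tg mice and 1.08 to 1.88 RPM in control mice, with a log2 fold change of 0.17 (95% interval −0.61 to 0.95). The difference in their ratio was 1.05 (exact permutation test, two-sided, p = 0.114, 0.152 adjusted over 4 ratios).

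Casc5 encodes KNL1, the scaffold on which checkpoint proteins gather. It was read at 26.5, 26.9, 8.31 and 24.4 RPM in HMMRTg/Tg mice and at 7.41, 6.40 and 8.77 RPM in control mice. Mice 7, 8 and 11 were close to each other and far above control, and mouse 9 lay inside the control range. The log2 fold change was 1.28 (95% interval 0.39 to 2.18, adjusted p = 0.317 from limma). Zwint, which binds KNL1, had a log2 fold change of 0.64, and the MIS12 complex genes Dsn1, Nsl1 and Pmf1 had 0.39, 0.89 and 0.20. These 4 had overlapping groups and adjusted p between 0.576 and 0.899 (limma). Mis12 was under the filter, with 5, 1, 3 and 2 reads in HMMRTg/Tg mice and 1, 1 and 3 reads in control mice.

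**Figure D2:**
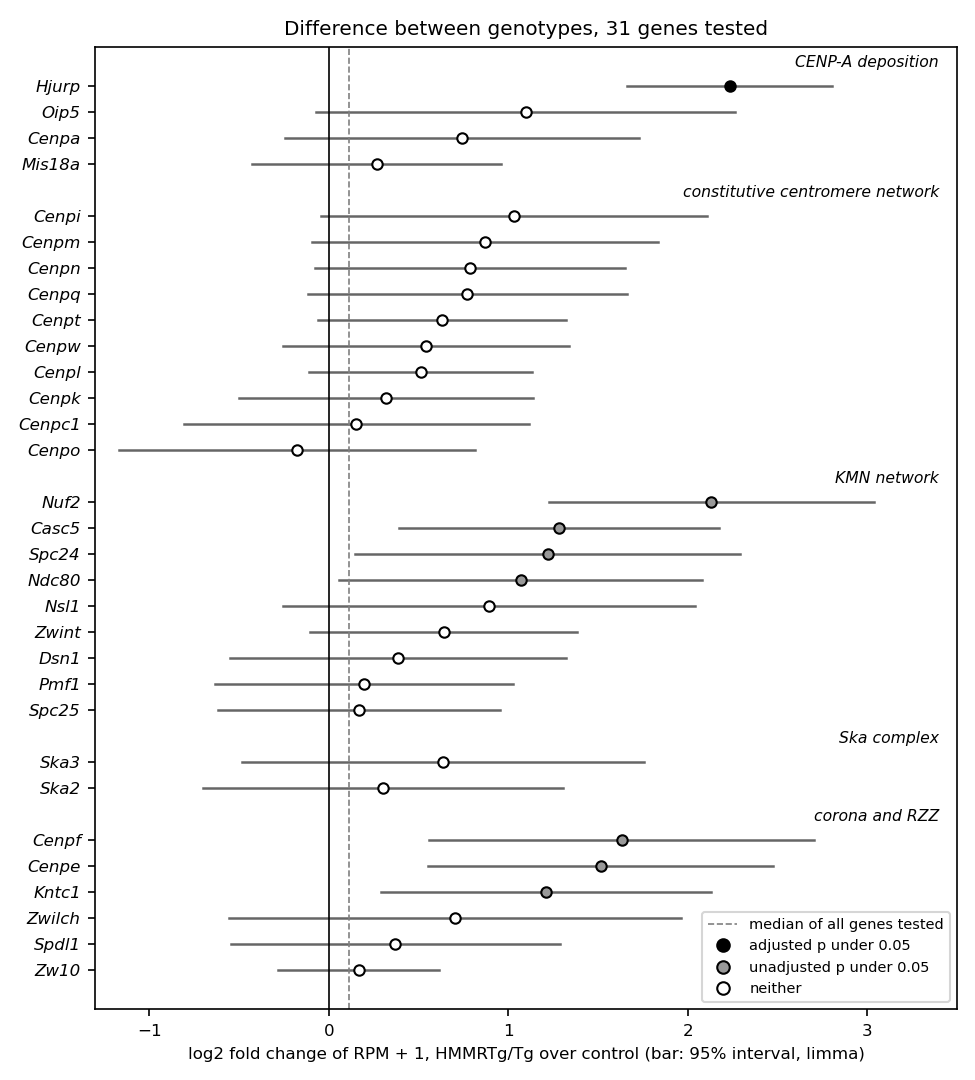
Log2 fold change of RPM + 1, HMMRTg/Tg over control, for the 31 genes tested, with 95% intervals from limma; the dashed line is the median of all genes tested. Hjurp (2.23) is the filled point past the adjusted threshold, Nuf2 (2.13) and 6 others are grey for an unadjusted p under 0.05, and Cenpo (−0.17) is the only point below 0.

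Genes of the outermost layer, the corona and the RZZ complex together, had 3 of 6 members higher at an unadjusted p under 0.05 (Cenpe, Cenpf and Kntc1, where 6.49% of all genes were higher). Cenpe, a kinesin that moves chromosomes to the spindle equator, was read at 17.4, 12.8, 4.09 and 9.37 RPM in HMMRTg/Tg mice and at 2.53, 2.76 and 3.04 RPM in control mice. The control mice were tightly grouped and lay below every HMMRTg/Tg mouse (log2 fold change 1.51, adjusted p = 0.272 from limma). Cenpf, which recruits dynein regulators to the kinetochore, was read at 15.4, 17.1, 4.47 and 6.36 RPM in HMMRTg/Tg mice and at 1.81, 4.20 and 1.64 RPM in control mice. Mouse 9 exceeded control mouse 2 only slightly (log2 fold change 1.63, adjusted p = 0.288 from limma).

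The RZZ complex, which brings the checkpoint protein MAD1 and dynein to kinetochores, had no member called after adjustment in limma. Kntc1, encoding its ROD subunit, was read at 6.02, 8.35, 2.94 and 5.35 RPM in HMMRTg/Tg mice and at 0.723, 2.76 and 2.22 RPM in control mice. The groups did not overlap, with mouse 9 and control mouse 2 nearly equal (log2 fold change 1.21, adjusted p = 0.364 from limma). Zw10, which also acts in membrane traffic outside mitosis, was read at 63.3, 56.4, 43.1 and 54.4 RPM in HMMRTg/Tg mice and at 52.2, 47.9 and 43.6 RPM in control mice. Mouse 9 was the lowest of all 7 mice, and the log2 fold change was 0.17 (95% interval −0.28 to 0.62). Zwilch and the dynein adaptor gene Spdl1 had log2 fold changes of 0.70 and 0.37 and overlapping groups.

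Of the constitutive centromere network, limma gave 0 of 10 tested members higher at an unadjusted p under 0.05 (6.49% of all genes), and 9 of the 10 had a positive log2 fold change, where 61.2% of all genes tested did. No member of it was called after adjustment by limma, edgeR or DESeq2. The unadjusted p was under 0.05 for Cenpi in edgeR (4.44% of all genes were higher) and for Cenpi and Cenpm in DESeq2 (4.56%). It was under 0.05 for Cenpi, Cenpw and Cenpn in limma without mouse 9 (6.08%), the HMMRTg/Tg mouse most often lowest for the members. Its median was 0.59. Cenpi was read at 4.35, 5.24, 0.639 and 2.01 RPM in HMMRTg/Tg mice and at 0.362, 1.32 and 0.702 RPM in control mice (log2 fold change 1.03, adjusted p = 0.533 from limma). At levels this low the value depended on the pseudocount of 1, and edgeR and DESeq2 each gave 1.8. Cenpn, which reads CENP-A nucleosomes, was at 6.15, 7.17, 2.17 and 4.35 RPM in HMMRTg/Tg mice and at 2.71, 1.99 and 2.10 RPM in control mice (log2 fold change 0.79, adjusted p = 0.551 from limma). In both genes mice 7, 8 and 11 lay above the control range and mouse 9 inside it.

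Cenpt, a DNA-binding arm that holds the NDC80 complex, was read at 19.0, 14.3, 13.8 and 11.7 RPM in HMMRTg/Tg mice and at 8.31, 13.0 and 6.67 RPM in control mice. Here mouse 11 and not mouse 9 fell within the control range (log2 fold change 0.63, adjusted p = 0.55 from limma). Cenpw, the partner of CENP-T, was at 33.4, 42.8, 13.2 and 26.1 RPM in HMMRTg/Tg mice and at 16.4, 16.8 and 20.9 RPM in control mice, with mouse 9 below all control mice (log2 fold change 0.54, adjusted p = 0.664 from limma). Cenpl, the partner of CENP-N, was the member of the network whose groups did not overlap, at 12.7 to 20.9 RPM in HMMRTg/Tg mice and 9.05 to 12.1 RPM in control mice (log2 fold change 0.51, adjusted p = 0.602 from limma).

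Cenpo was the exception in direction, at 15.4, 9.74, 12 and 4.02 RPM in HMMRTg/Tg mice and 8.49, 7.84 and 18 RPM in control mice. The groups overlapped widely and its log2 fold change of −0.17 had a 95% interval of −1.17 to 0.82, with a positive sign without mouse 3, without mouse 11 or with the luminal score as a covariate. Cenpc1, which encodes CENP-C, the link from CENP-A to the MIS12 complex, had a log2 fold change of 0.15 (95% interval −0.81 to 1.11). Cenpk, Cenpm and Cenpq had 0.32, 0.87 and 0.77, with overlapping groups. Cenph was under the filter, with 4, 7, 3 and 0 reads in HMMRTg/Tg mice and 0, 4 and 0 reads in control mice.

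The Ska complex, which keeps kinetochores on shrinking microtubules, rested on 0 to 52 reads per mouse and gene. Ska2 was at 4.74, 5.56, 1.92 and 2.01 RPM in HMMRTg/Tg mice and at 1.08, 2.65 and 4.44 RPM in control mice, a log2 fold change of 0.30 (95% interval −0.70 to 1.31) that was −0.06 without mouse 1. Ska3 had a log2 fold change of 0.64, with control mouse 3 at 0 reads and control mouse 1 above all HMMRTg/Tg mice. Ska1 was under the filter and had 4 reads in mouse 8, 1 read in control mouse 3 and 0 reads elsewhere. A difference in Ska1, Cenph or Mis12 was not detectable at this depth.

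Mouse 9 was often the lowest HMMRTg/Tg mouse for these genes. Of the 31 tested members, mouse 9 was the lowest of the 4 HMMRTg/Tg mice for 23, where it was lowest for 21.8% of all genes tested. Mouse 11 was lowest for 7 (43.7% of all genes), mouse 8 for 1 (21.8%) and mouse 7 for 0 (13.5%). Members above all 3 control mice numbered 28 of 34 in mouse 7, 29 in mouse 8, 12 in mouse 9 and 16 in mouse 11. Over all 23930 amplicons, of which 13080 passed the filter, the shares were 25.5%, 20.3%, 23.7% and 16.5% in mice 7, 8, 9 and 11. Among the 31 tested members the counts were 26, 27, 11 and 16. The shares over genes tested alone were not computed, so the sets compared here differ in how many amplicons lie near 0. The section of mouse 9 had more adipocyte RNA (15800 RPM summed over 9 markers, against 4687 to 6629 RPM in the other HMMRTg/Tg mice) and a lower luminal sum (3884 RPM, against 5375 to 5979 RPM), and their part in its values was not tested. Without mouse 9, limma called 3 members higher over all genes (Hjurp, Nuf2 and Casc5, where 0.168% of all genes were higher), and 13 were higher at an unadjusted p under 0.05 (6.08% of all genes). Larger differences follow from leaving out the mouse that was lowest for most members, so these counts are no separate result. Without mouse 7, 8 or 11, limma called Hjurp alone (0.0153%, 0.0688% and 0.0153% of all genes). Without control mouse 2 it called 2 (Hjurp and Nuf2), where 0.153% of all genes were called higher.

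**Figure D3:**
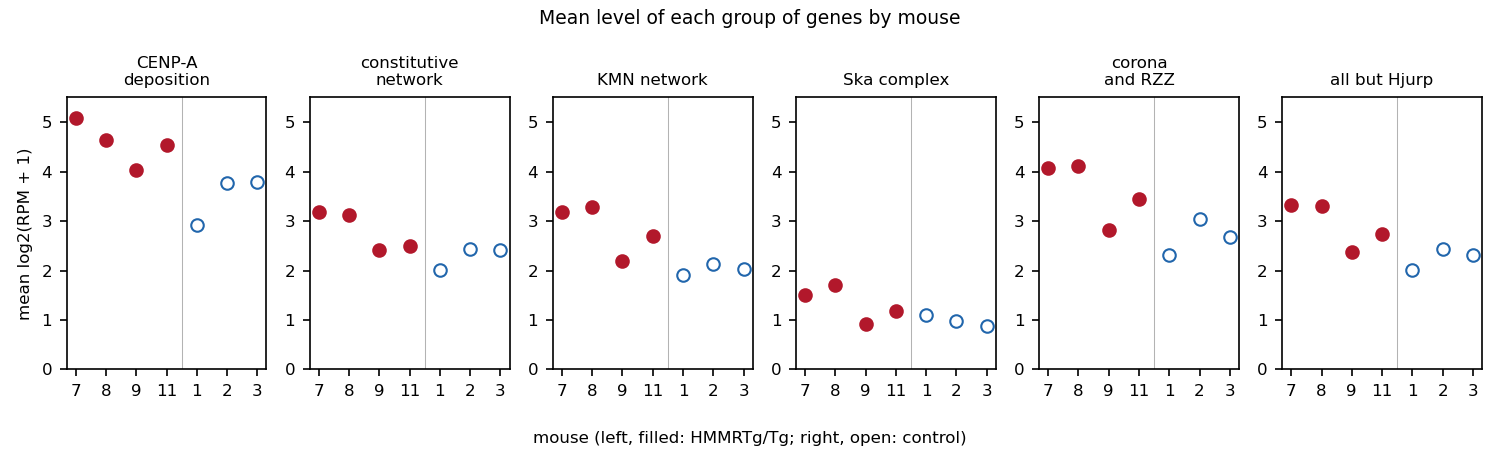
Mean of log2(RPM + 1) over each group of genes in each mouse (mouse numbers on the horizontal axis, HMMRTg/Tg filled and left, control open and right). In the panel of all members but Hjurp, mouse 9 (2.37) lies within the control range of 2.02 to 2.43, while mice 7, 8 and 11 lie at 3.32, 3.31 and 2.74.

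Summed over the 34 genes, reads made up 0.0568%, 0.0525%, 0.0293% and 0.0414% of the library in HMMRTg/Tg mice and 0.0189%, 0.0250% and 0.0244% in control mice. The sums did not overlap, but Hjurp supplied part of them, and sums without Hjurp were not computed. The mean of log2(RPM + 1), a different measure, scarcely separated the groups with Hjurp included (2.479 in both mouse 9 and control mouse 2, after rounding). Without Hjurp that mean did overlap, at 3.32, 3.31, 2.37 and 2.74 in HMMRTg/Tg mice and 2.02, 2.43 and 2.31 in control mice.

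Proliferation markers outside the members moved with these genes. Of 16 such markers, among them Mki67 and Top2a, all had positive values, where 61.2% of all genes tested did. The median log2 fold change was 1.10, and 9 were higher at an unadjusted p under 0.05 (6.49% of all genes). Their mean of log2(RPM + 1) was 4.35, 4.55, 3.10 and 3.84 in HMMRTg/Tg mice and 2.15, 3.3 and 3.18 in control mice, so mouse 9 again lay inside the control range. For Hjurp, mouse 9 was likewise the lowest HMMRTg/Tg mouse (71.3 RPM), and control mouse 1 the lowest control mouse (11.4 RPM), as for the marker mean. Mouse 9 lay above all control mice for Hjurp, while its marker mean was below that of control mouse 2, which had 15.9 RPM of Hjurp. With the marker mean as a covariate, the median over the 31 members was 0.02 and 15 of them were negative. In that fit Hjurp was at 1.90 on the log2 scale (SE 0.344, adjusted p = 0.133 from limma) and Nuf2 at 1.39 (adjusted p = 0.688). That fit called 0 members higher over all genes (0.00765% of all genes) and 2 at an unadjusted p under 0.05 (3.2%). The markers, like many members, are genes of dividing cells, so the covariate is not independent of the members.

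**Figure D4:**
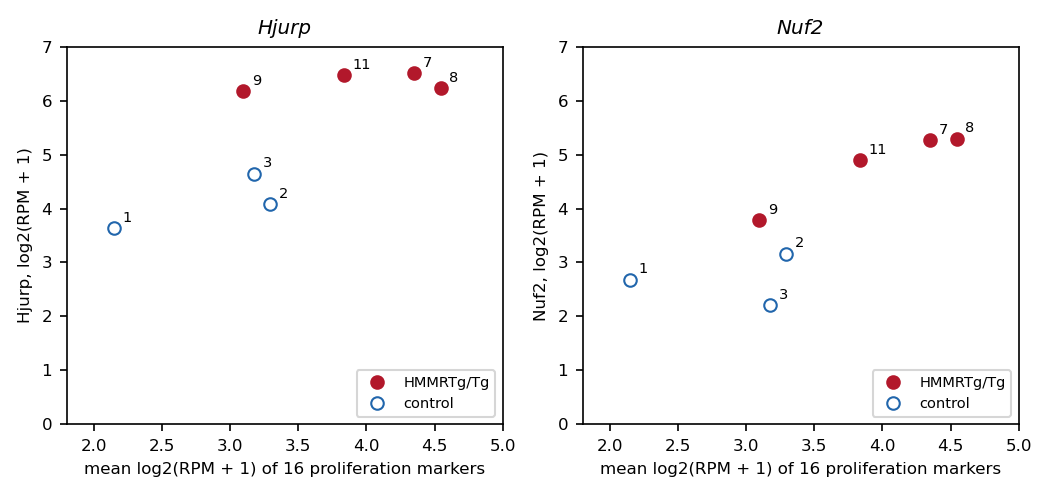
Hjurp (left) and Nuf2 (right), each as log2(RPM + 1), against the mean log2(RPM + 1) of 16 proliferation markers, with 1 point per mouse labelled by its number. For Hjurp, HMMRTg/Tg mouse 9 (6.18) lies near the other HMMRTg/Tg mice (6.23 to 6.51) and above control mice 2 and 3 (4.08 and 4.65), whose marker means are close to its own, and for Nuf2 the gap between mouse 9 (3.79) and control mouse 2 (3.16) is smaller.

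Other genes of the same structures were summarised from a list of 31, all of which had a row and 28 of which passed the filter. Of the 28, 24 had a positive and 4 a negative log2 fold change, with a median of 0.81, where 61.2% of all genes tested were positive. At an unadjusted p under 0.05, 13 were higher (6.49% of all genes) and 0 lower (3.22%). None was called over all genes by limma. Mad1l1, which encodes the checkpoint protein MAD1, had the lowest p, averaging 44.5 ± 3.57 RPM in 4 HMMRTg/Tg mice (SD) and 22.6 ± 4.94 RPM in 3 control mice (SD) (log2 fold change 0.96, adjusted p = 0.149 from limma). The chromosomal passenger genes Cdca8 and Birc5 had log2 fold changes of 1.86 and 1.61 (adjusted p = 0.242 and 0.265 from limma), and Spag5, encoding the kinetochore protein astrin, had 1.45 (adjusted p = 0.307). Among the negative values was Cenpb, whose protein binds a motif of centromeric DNA and is not needed for viability in mice, averaging 413 ± 54.5 RPM in 4 HMMRTg/Tg mice (SD) and 532 ± 41.8 RPM in 3 control mice (SD) (log2 fold change −0.37, adjusted p = 0.551 from limma). Cenpb was chosen after its value was seen.

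On reads recovered from the RPM values, edgeR called Hjurp alone among the members (log2 fold change 2.18, adjusted p = 0.00801), where 0.0306% of all genes were called higher. DESeq2 called 4 members higher, Hjurp (adjusted p = 1.4e-12), Nuf2 (0.000152), Cenpe (0.0174) and Cenpf (0.0412), where 0.617% of the genes with an adjusted p were called higher. With array weights limma called Hjurp and Nuf2 (0.0765% of all genes). With the mean of 14 luminal epithelial markers as a covariate, 4 members were higher at an unadjusted p under 0.05 (5.96% of all genes), and Hjurp was at 2.31 on the log2 scale (adjusted p = 0.00552 from limma). B cells, which divide in lymph nodes, had a summed level over 7 markers of 28.6 to 725 RPM in HMMRTg/Tg mice and 9.94 to 786 RPM in control mice. Their part in these results was not tested.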

How the data were processed

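RNA of paraffin sections was read by the authors with the Ion AmpliSeq mouse transcriptome panel on an Ion Torrent S5 and processed with the AmpliSeqRNA plug-in. The submitters' processing notes name mm10 and Transcriptome Analysis Console; the aligner is not given in the sources used here. The values deposited for each mouse are called TPM by the authors but were used as RPM, since they sum to 1000000 and 100% of values under 1000 reads were whole reads within 0.05 reads. No 2 libraries of a group were alike within counting error (chi-square over its degrees of freedom, 27.6 to 140).

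Groups and mouse numbers came from the labels. log2(RPM + 1) was fitted with limma 3.58.1 in R 4.3.3 (eBayes with a trend and a term for genotype). Genes needed 1 RPM or more in 3 mice or more, with Benjamini-Hochberg adjustment. Ratios of partner genes were compared with exact permutation tests over 35 splits. The recovered reads were tested in edgeR 4.0.16 and in DESeq2 1.42.0, which gave 277 genes no adjusted p. Other alternatives were pseudocounts, filters, scalings, weights, covariates and leaving out each mouse. The fit was tested on simulated data. Members and lists were chosen with earlier results of these data known. Values in every mouse were given for adjusted calls, the 12 members of lowest p, the highest mean of each role and negative values. Cenpa, Mis18a, Spc25 and Cenpb were added after their values were seen.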

Additional observations from a re-analysis of the deposited data

Results flagged for a closer look

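Among the 4 HMMRTg/Tg mice, 4 of 34 genes had 1 mouse far from the other 3 relative to their range. Of all genes tested, 6.13% had such a mouse. That share covers only genes that passed the filter, which Ska1, among the 4, did not. Cenpa was high in mouse 7, at 18.8 RPM against 7.42 to 8.99 RPM in the others. Casc5 was low in mouse 9, at 8.31 RPM against 24.4 to 26.9 RPM, and Ska3 was low in mouse 9, at 1.28 RPM against 2.67 to 2.95 RPM. Ska1 was read only in mouse 8 of this group, at 0.428 RPM, which is 4 reads against 0 in the other 3, so that any read in 1 mouse alone would meet this criterion.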

How the results depend on the processing

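The call of Hjurp held in 18 of 19 alternatives (log2 fold change 1.77 to 2.50 over all 19), and ended with the proliferation score as a covariate (1.90, adjusted p = 0.133 from limma). The count of members called higher, 1 in the main analysis, was 2 with array weights, 4 in DESeq2, 0 with the proliferation score, where 2 were higher at an unadjusted p under 0.05, and 1 to 3 when each mouse was left out. The 8 members at an unadjusted p under 0.05 were 4 with the luminal score, 2 with the proliferation score and 6 to 13 when each mouse was left out. The median of 0.70 was 0.02 with the proliferation score and 0.54 to 0.87 when each mouse was left out. With that score 15 of 31 members were negative, against 1 in the main analysis, among them Oip5 (−0.11), Cenpi (−0.0943), Cenpw (−0.23), Ska2 (−0.67), Cenpa (−0.0973), Mis18a (−0.166), Nsl1 (−0.17), Spc25 (−0.337), Spdl1 (−0.481) and Zwilch (−0.616). With the luminal score 3 were negative (Zwilch −0.14, Spc25 −0.0977 and Cenpc1 −0.0202). Cenpo turned positive with the luminal score (0.0231) and, among fits without 1 mouse (−0.40 to 0.18), without mouse 3 (0.18) or mouse 11 (0.17). Cenpi was 1.61 with a pseudocount of 0.1 and 1.8 in edgeR and in DESeq2, against 1.03. Ska2 was −0.0641 to 0.63 when each mouse was left out. The cause of these changes was not tested. Under DESeq2 the median of all genes was −0.01, against 0.11 in the main analysis, and 30 of 31 members stayed positive. No paired analysis was possible because the groups share no mouse numbers. Members read at a few RPM rest on few reads. Whether the human transgene, muscle or B cell content bears on these values was not tested.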
